A study of Homo sapiens with 6 samples.

Results

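The genes described here are 30 genes of lipid synthesis and its control, named by symbol and matched to the deposited table by Entrez gene number, out of 25702 genes listed there. They form a sterol arm of 20 genes (from HMGCS1 to SREBF2 in the mevalonate, squalene and cholesterol steps, with INSIG1 and STARD4) and a fatty acid arm of 10 genes (ACLY, AACS, ACACA, FASN, SCD, ELOVL6, ACSL3, FADS1, FADS2 and SREBF1). All 30 were found in the table and all 30 passed the filter on low values, a mean normalised read count of 10 or more. The cells were RMS13, a cell line from a human rhabdomyosarcoma (a tumour with muscle features), and their mRNA was sequenced after 72 h with an siRNA that targets GLI1 (siGLI1, 3 libraries) or a non-targeting one (siNT2, 3 libraries). All 6 libraries came from the same line grown in RPMI with fetal bovine serum, which itself supplies cholesterol and fatty acids to the cells. The labels name 1 siRNA target and give no siRNA sequence, and they leave unsaid whether replicates were separate cultures, so each p-value reflects the spread among 6 libraries, which may be technical.

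Cells build cholesterol from acetyl-CoA through mevalonate, isoprenoid pyrophosphates, squalene and lanosterol, and they build palmitate from the same acetyl-CoA through malonyl-CoA. Palmitate is then elongated, desaturated and activated for use in membrane and storage lipids. Both routes are induced by the sterol regulatory element-binding proteins, SREBP2 (gene SREBF2) mostly for sterols and SREBP1 (gene SREBF1) mostly for fatty acids. The INSIG proteins hold the SREBP precursors in the endoplasmic reticulum when sterols are plentiful.

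The targeted gene was checked first. GLI1, which encodes the zinc finger factor at the end of the Hedgehog pathway, had 580, 906 and 1274 normalised read counts in the siGLI1 libraries, against 11963, 17837 and 12774 in the siNT2 libraries. It fell to 6.48% of the siNT2 mean (95% interval of the log2 fold change -4.67 to -3.32, adjusted p = 0.000425 with limma). Recovered reads ranged from 13784642 to 15477041 in the siGLI1 libraries and from 13673977 to 18947614 in the siNT2 libraries. Of the 10 muscle lineage markers listed, 8 passed the filter, MYF5 and MYF6 stayed at or below 3 in every library, and the summed level was 88014 to 137621 in siGLI1 and 68335 to 90294 in siNT2. In that list 3 of the 8 tested, ACTC1, CHRNA1 and DES, rose, against 7.21% of all genes tested, and MYOG, FGFR4, MYOD1, PAX3 and CDH15 did not pass (log2 fold changes of 0.24, -0.12, -0.04, -0.01 and -0.02). MYOG passed when GC-corrected (0.39, adjusted p = 0.00831), and FGFR4, MYOD1, PAX3 and CDH15 did not. The adipocyte list summed to 2642 to 2904 in siGLI1 libraries and 2651 to 3151 in siNT2 libraries, with CIDEA at 0 and PLIN1 at or below 3, and its 3 tested genes, ADIPOR2, PLIN4 and LIPE, did not pass. ADIPOR2 averaged 2318 in siGLI1 and 2532 in siNT2. PLIN4 was at 221, 373 and 571 in siGLI1, against 136, 346 and 186 in siNT2 (log2 fold change 0.81, adjusted p = 0.235), and passed when GC-corrected (1.04, adjusted p = 0.01), as did LIPE in the other direction (-0.84, adjusted p = 0.044). The epithelial list summed to 97.2 to 103 in siGLI1 and 128 to 158 in siNT2. Its 3 tested genes, EPCAM, KRT8 and KRT18, did not pass, and EPCAM alone passed when GC-corrected (-0.69, adjusted p = 0.0238). The fibroblast list summed to 564 to 592 in siGLI1 and 424 to 556 in siNT2. Of the 5 fibroblast genes tested, COL1A2 and LUM rose, against 7.21% of all genes tested. COL1A2 averaged 32.9 in siGLI1 and 4.43 in siNT2 (adjusted p = 0.00593), with siNT2 libraries at only 3.29, 2.03 and 7.97. COL1A2 passed the filter only through its siGLI1 values, so its test is no separate support. LUM averaged 22.6 in siGLI1 and 11.2 in siNT2 (adjusted p = 0.0484). The LUM call was lost whichever library was dropped, and when GC-corrected (0.72, adjusted p = 0.0708), while COL1A2 stayed called. COL1A1, PDGFRA and THY1 did not pass (log2 fold changes of 0.86, -0.25 and 0.01). Of these, COL1A1 alone passed when GC-corrected (1.07, adjusted p = 0.00234). The blood cell list summed to 20.5 to 44.4 in siGLI1 and 15.2 to 16.5 in siNT2, with HBB at 0. CD14, its 1 gene tested, did not pass (log2 fold change 0.71), unless GC-corrected (0.85, adjusted p = 0.0461). The hepatocyte list summed to 4.32 to 7.90 in siGLI1 and 27.4 to 46.3 in siNT2, with TTR and FGB at 0. APOB, its 1 gene tested, fell (0.67 in siGLI1 and 35.1 in siNT2 on average, adjusted p = 0.000928). APOB was at 0, 1.02 and 0.99 in siGLI1 and passed the filter only through its siNT2 values, so its test is no separate support. The part of these marker levels in the results was not tested.

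Libraries of each group differed along GC content. Across 14438 genes, the deviation of each library from its group mean was ranked against transcript GC content, and the rank correlation was 0.75 in siGLI1 replicate 3 and 0.71 in siNT2 replicate 2, and it lay between -0.70 and -0.31 in the other 4 libraries. GC-rich genes thus tended to sit high in those 2 libraries and AT-rich genes low. The main test was limma on log2(value + 1). Values are also given after each library's GC trend was removed (GC-corrected), and without those 2 libraries together. Ranges over alternative fits, given below, take in library weights and the fits without those 2 libraries, which were chosen after the data were seen. Those settings gave the lowest adjusted p-values of ELOVL6, SCD, SREBF1, LSS and MSMO1.

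In siGLI1 cells 3 of the 30 members rose and 4 fell at an adjusted p under 0.05 (23.3% of the members in either direction, against 15.2% of all 15622 genes tested, of which 7.21% were higher and 8.0% lower). The members that rose were MSMO1, SC5D and AACS, and those that fell were LSS, EBP, ELOVL6 and FADS1. In these bulk libraries, fewer cells that express a gene and less of its RNA per cell cannot be told apart. In the fatty acid arm 1 gene rose and 2 fell, with a median log2 fold change of -0.46. In the sterol arm 2 rose and 2 fell, with a median of 0.08, while the median over all genes tested was -0.01. The siGLI1 libraries lay wholly below the siNT2 libraries in 6 of the 10 fatty acid genes and 2 of the 20 sterol genes, against 18.8% of all genes tested. They lay wholly above in 1 fatty acid gene and 4 sterol genes, against 17.4% of all genes tested. Groups without overlap in either direction made up 36.2% of all genes tested. With edgeR the same 3 members were called higher and the same 4 lower, against 7.57% and 7.68% of genes. With DESeq2 4 were called higher, HSD17B7 being added, and 6 lower, SCD and SREBF1 being added, against 10.5% of genes in each direction.

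**Figure D1:**
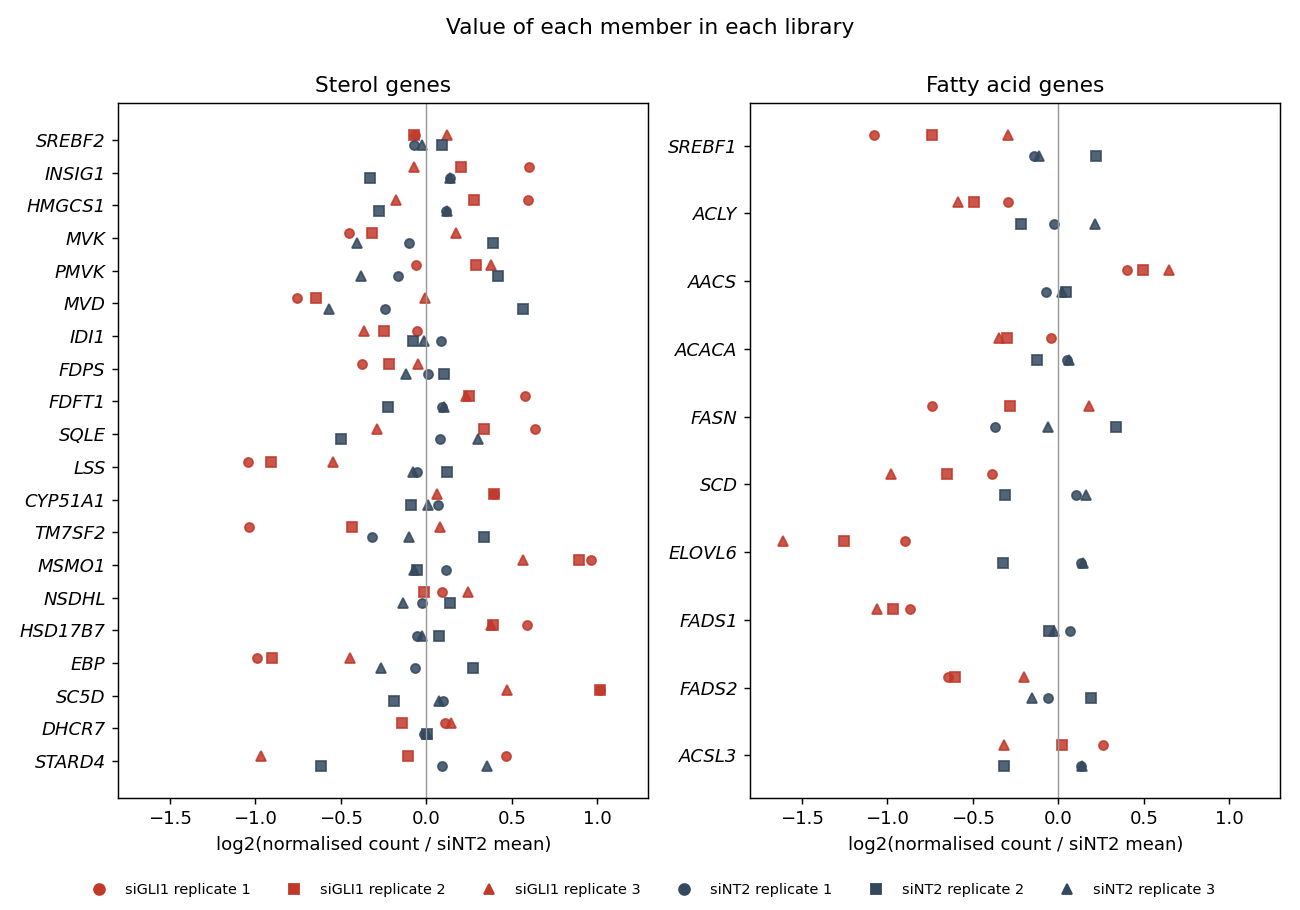
Each point is 1 library, placed by log2 of its normalised read count over the mean of the 3 siNT2 libraries, with siGLI1 in red drawn above siNT2 in dark blue and the marker shape giving the replicate number. Genes run down the page by role. In SREBF1, ACLY, SCD, ELOVL6, FADS1 and FADS2 the siGLI1 points lie wholly left of the siNT2 points, while sterol genes lie on both sides.

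The 4 genes that lengthen and desaturate fatty acids had siGLI1 values wholly below their siNT2 values, and 2 of the 4 passed the test, against 18.8% of all genes lying wholly below and 8.0% called lower. FADS1 (Entrez gene 3992) encodes the delta-5 desaturase of polyunsaturated fatty acids. FADS1 had 2018, 1888 and 1769 normalised counts in the siGLI1 libraries, against 3866, 3551 and 3626 in the siNT2 libraries. The groups were far apart and each was tight. FADS1 fell to 51.4% of the siNT2 mean, a log2 difference of -0.96 ± 0.12 (standard error), with a 95% interval of -1.24 to -0.69 and an adjusted p of 0.00276 (limma). It was called lower in all 18 alternative fits, whose adjusted p-values ranged from 5.43e-10 with DESeq2 to 0.027 without siGLI1 replicate 2, and its GC-corrected value was also -0.96.

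ELOVL6 (Entrez gene 79071), the elongase that carries C16 acyl chains towards stearate, had the lowest log2 fold change of the 30. It had 519, 405 and 316 normalised counts in siGLI1 libraries, against 1057, 772 and 1068 in siNT2 libraries. Every siGLI1 library was below every siNT2 library, and siGLI1 replicate 3 and siNT2 replicate 2 were the lowest of their groups. ELOVL6 fell to 42.8% of the siNT2 mean (log2 fold change -1.24, standard error 0.22, 95% interval -1.75 to -0.72, adjusted p = 0.0112). The call was lost without siGLI1 replicate 2 (-1.24, adjusted p = 0.0627) or siNT2 replicate 1 (-1.16, adjusted p = 0.059), and its alternatives ranged from 9.14e-07 to 0.0627. Over all genes tested, 1127 were called higher and 1249 lower with all 6 libraries. Without siGLI1 replicate 2 these counts were 283 and 358, and without siNT2 replicate 1 they were 414 and 449. The GC-corrected log2 fold change was -1.38 (adjusted p = 4.6e-05).

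SCD encodes stearoyl-CoA desaturase, which makes oleate and palmitoleate. Its counts were 13777, 11477 and 9138 in siGLI1 libraries, against 19329, 14500.2 and 20190.2 in siNT2 libraries. The groups did not overlap, and the log2 difference of -0.66 (95% interval -1.11 to -0.21) missed the threshold, at an adjusted p of 0.0595. The GC-corrected value of -0.71 passed it (adjusted p = 0.00437), and so did the value of -0.65 without siGLI1 replicate 3 and siNT2 replicate 2 (adjusted p = 0.0062), out of a range from 0.000164 to 0.188 over the alternatives. FADS2, the delta-6 desaturase gene that lies beside FADS1, had 301, 309.8 and 409.9 in siGLI1 libraries, against 450.2, 537 and 423 in siNT2 libraries. The log2 difference of FADS2 was -0.47 (95% interval -0.88 to -0.06, adjusted p = 0.114) and its GC-corrected value -0.27 (adjusted p = 0.0927). FADS2 and FADS1 overlap in the RefSeq annotation, and whether reads were counted by strand is not given in the sources used here, so reads from the shared stretch cannot be told apart.

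Among the 4 genes that supply acyl chains, AACS rose and the other 3 did not pass. AACS (Entrez gene 65985) encodes the cytosolic acetoacetyl-CoA synthetase, which feeds ketone bodies into lipid synthesis. It had 1774, 1888 and 2103 counts in siGLI1 libraries, against 1277, 1382 and 1364 in siNT2 libraries. All siGLI1 values were above all siNT2 values. AACS rose to 143% of the siNT2 mean, a log2 difference of 0.52 ± 0.13 (standard error), with a 95% interval of 0.22 to 0.81 and an adjusted p of 0.0322 (limma). Leaving out single libraries ended the call in 5 of 6 cases, the exception being siGLI1 replicate 3. The 6 adjusted p-values were 0.0579, 0.137 and 0.0497 without siGLI1 replicates 1, 2 and 3, and 0.145, 0.064 and 0.0805 without siNT2 replicates 1, 2 and 3. Its GC-corrected value was 0.62 (adjusted p = 0.00127). The pseudogene copy AACSP1 stood at -0.18 on the log2 scale (adjusted p = 0.607).

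ACLY, which cleaves citrate to cytosolic acetyl-CoA, had 4001, 3485 and 3269 counts in siGLI1 libraries, against 4819, 4218 and 5690.5 in siNT2 libraries. The groups did not overlap, and the log2 fold change was -0.45 (95% interval -0.80 to -0.09, adjusted p = 0.0886). ACACA, the acetyl-CoA carboxylase that makes malonyl-CoA, had a value of -0.23 (95% interval -0.54 to 0.08, adjusted p = 0.289). FASN, the fatty acid synthase gene, ranged from 14820.1 to 28061 in siGLI1 libraries and from 19132 to 31294 in siNT2 libraries. Its interval, -0.86 to 0.36, was wide (log2 fold change -0.25, adjusted p = 0.555), and siGLI1 replicate 3 and siNT2 replicate 2 were the highest of their groups. FASN, whose GC content was 65.3%, had a GC-corrected value of 0.05. ACSL3, which activates fatty acids with coenzyme A for lipid droplet formation, had a value of 0.01 (95% interval -0.45 to 0.46), or -0.20 when GC-corrected (adjusted p = 0.0919).

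The 3 control genes did not pass the test with limma (SREBF1 alone had an unadjusted p under 0.05), and differences between them were not tested. SREBF2 was at 5371, 5360.04 and 6125 in siGLI1 libraries, against 5353, 5989 and 5522 in siNT2 libraries. The groups overlapped throughout, and the log2 fold change was -0.00 (95% interval -0.28 to 0.28, adjusted p = 0.992), with the sign above 0 under edgeR (0.01), DESeq2 (0.01) and the GC correction (0.15). SREBF1 was at 2608, 3296 and 4478 in siGLI1 libraries, against 4983, 6417 and 5088 in siNT2 libraries. Each siGLI1 library was below each siNT2 library, the nearest being siGLI1 replicate 3. Its log2 fold change was -0.69 (standard error 0.21, 95% interval -1.18 to -0.20, adjusted p = 0.0658), which missed the threshold. SREBF1 passed with the GC correction (-0.41, adjusted p = 0.0102), with DESeq2 (adjusted p = 0.0372) and without siGLI1 replicate 3 and siNT2 replicate 2 (-0.78, adjusted p = 0.00204), with adjusted p-values from 0.000576 to 0.208 over its alternatives. The gene RAI1 overlaps SREBF1 in the RefSeq annotation and was itself lower (5946 in siGLI1 and 9673 in siNT2 on average, log2 fold change -0.71, adjusted p = 0.0172), so the 2 genes' reads may not be separate. INSIG1, itself an SREBP target, stood at 0.26 on the log2 scale (95% interval -0.24 to 0.76, adjusted p = 0.448).

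**Figure D2:**
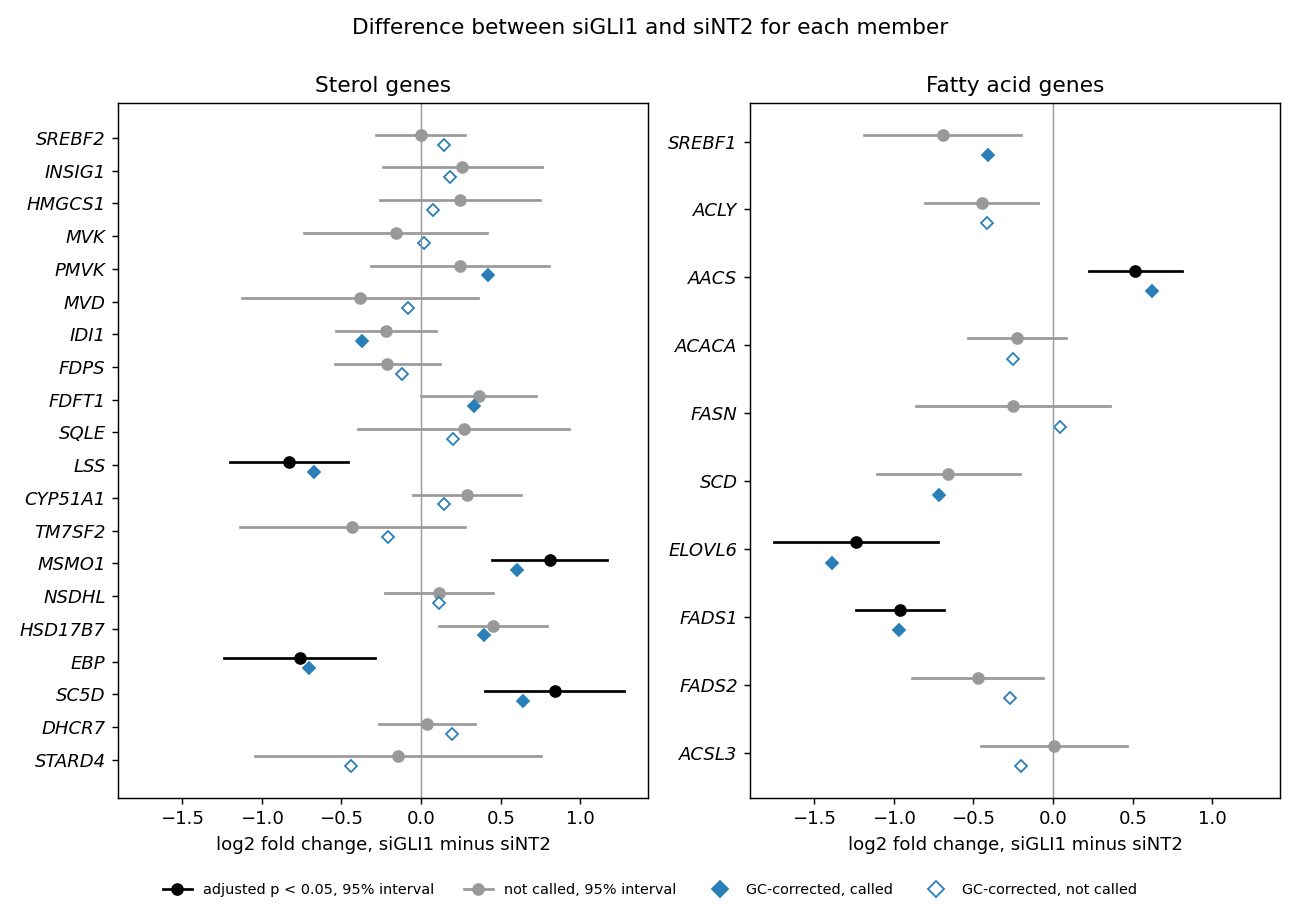
Circles give the log2 fold change of each member, as siGLI1 over siNT2 after adding 1 to each value, with 95% intervals from limma, black where the adjusted p was under 0.05 and grey otherwise. Blue diamonds give the value after the GC correction, filled where called. MSMO1, SC5D and AACS lie right of 0 and LSS, EBP, ELOVL6 and FADS1 left of 0 in both, and SCD, SREBF1 and IDI1 are called lower, and PMVK, FDFT1 and HSD17B7 higher, after the correction alone.

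In the sterol arm, the 6 mevalonate and isoprenoid genes passed the test in neither direction. Their groups overlapped in all 6. HMGCS1, which makes HMG-CoA, was at 3453, 2777 and 2025 in siGLI1 libraries, against 2481, 1887 and 2485 in siNT2 libraries, a log2 fold change of 0.25 (95% interval -0.26 to 0.75). The kinase genes MVK and PMVK had values of -0.16 and 0.24, and the decarboxylase gene MVD one of -0.38 with an interval of -1.13 to 0.36. IDI1, which isomerises isopentenyl pyrophosphate, had a value of -0.22 and FDPS, the farnesyl pyrophosphate synthase gene, one of -0.21. After the GC correction PMVK was called higher (0.42, adjusted p = 0.0421) and IDI1 lower (-0.37, adjusted p = 0.0315), while MVK changed sign (0.02). FDPS has several pseudogene copies and IDI1 overlaps WDR37 in the annotation, which leaves both counts uncertain.

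Of the 3 genes for the steps from farnesyl pyrophosphate to lanosterol, LSS fell and the other 2 did not pass. LSS (Entrez gene 4047), the lanosterol synthase that closes the sterol rings, had 1428, 1566 and 2009.9 counts in siGLI1 libraries, against 2829.8, 3192 and 2785 in siNT2 libraries. The groups did not overlap, with siGLI1 replicate 3 the highest of its group. LSS fell to 56.8% of the siNT2 mean (log2 fold change -0.83, standard error 0.16, 95% interval -1.20 to -0.46, adjusted p = 0.0144). The call was lost without siGLI1 replicate 2 (-0.79, adjusted p = 0.0854) or siNT2 replicate 1 (-0.85, adjusted p = 0.0638), and its alternatives ranged from 2.58e-05 to 0.0854. Both fits called fewer genes in all than the main fit. FDFT1, the squalene synthase gene, had 3536, 2823 and 2780.2 in siGLI1 libraries, against 2524, 2030.4 and 2552 in siNT2 libraries. Its siGLI1 values were all above its siNT2 values, yet the log2 difference of 0.36 (95% interval -0.00 to 0.72) missed the threshold, at an adjusted p of 0.158, unless GC-corrected (0.33, adjusted p = 0.0442). SQLE, the squalene monooxygenase gene that oxidises squalene just before LSS acts, overlapped between groups (log2 fold change 0.27, 95% interval -0.39 to 0.93).

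Between lanosterol and cholesterol, 2 of 8 genes rose and 1 fell, against 7.21% of all genes called higher and 8.0% called lower. MSMO1 (Entrez gene 6307), the C4 methyl sterol oxidase, had 927, 881 and 703 counts in siGLI1 libraries, against 515, 458 and 452 in siNT2 libraries. All siGLI1 values were above all siNT2 values. MSMO1 rose to 176% of the siNT2 mean (log2 fold change 0.81, standard error 0.15, 95% interval 0.45 to 1.17, adjusted p = 0.0143). The call was lost without siGLI1 replicate 2 (adjusted p = 0.088), siNT2 replicate 1 (0.0542) or siNT2 replicate 3 (0.0514), out of a range from 6.03e-05 to 0.088, and the GC-corrected value was 0.60 (adjusted p = 0.00904).

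SC5D (Entrez gene 6309), the lathosterol desaturase, had 984, 982 and 675 in siGLI1 libraries, against 520.5, 427 and 512 in siNT2 libraries. The groups did not overlap, and siGLI1 replicate 3 and siNT2 replicate 2 were the lowest of their groups. SC5D rose to 181% of the siNT2 mean (log2 fold change 0.84, standard error 0.19, 95% interval 0.40 to 1.28, adjusted p = 0.0247). EBP (Entrez gene 10682), the sterol isomerase acting just before SC5D, had 394, 419 and 575 in siGLI1 libraries, against 750.0, 947 and 654 in siNT2 libraries. Its groups did not overlap either, in the other direction. EBP fell to 59.0% of the siNT2 mean (log2 fold change -0.76, standard error 0.20, 95% interval -1.24 to -0.29, adjusted p = 0.0443).

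The calls of SC5D and EBP were each lost when any 1 of 5 libraries was left out. Without siGLI1 replicate 1, siGLI1 replicate 2, siNT2 replicate 1, siNT2 replicate 2 or siNT2 replicate 3, the adjusted p of SC5D was 0.0661, 0.126, 0.0804, 0.0645 and 0.0608, and that of EBP was 0.109, 0.178, 0.129, 0.107 and 0.0589. Without siGLI1 replicate 3 they were 0.00645 for SC5D and 0.016 for EBP. GC-corrected values were 0.64 for SC5D (adjusted p = 0.00165) and -0.70 for EBP (adjusted p = 0.00576). SC5D was higher and EBP lower both with and without the correction.

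The other 5 genes of these steps did not pass. HSD17B7, the 3-keto sterol reductase, had 274, 239 and 237 in siGLI1 libraries, against 176, 192 and 179 in siNT2 libraries, with no overlap and a log2 difference of 0.45 (95% interval 0.11 to 0.79), at an adjusted p of 0.0766. It was called with DESeq2 (adjusted p = 0.0467) and when GC-corrected (0.39, adjusted p = 0.0408), and its reads can be shared with the pseudogene HSD17B7P2, which averaged 41.8 in siGLI1 and 26.6 in siNT2. CYP51A1, the lanosterol demethylase, had a value of 0.29 (95% interval -0.05 to 0.62). TM7SF2, a sterol C14 reductase gene, had one of -0.43 (95% interval -1.14 to 0.27). NSDHL, the C4 decarboxylating dehydrogenase gene, had one of 0.11 (95% interval -0.23 to 0.45). DHCR7, which makes cholesterol from 7-dehydrocholesterol, was at 1621, 1362 and 1664 in siGLI1 libraries, against 1490.1, 1507 and 1509 in siNT2 libraries (log2 fold change 0.04, 95% interval -0.26 to 0.34). STARD4, a soluble sterol transfer protein gene, had the widest interval of the arm, -1.04 to 0.75 around -0.15, and it overlaps the RNA gene STARD4-AS1.

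Set side by side per library, the arms separated in siGLI1 cells. For each gene the log2 value was taken relative to its siNT2 mean, and the median over the arm was computed in each library. The fatty acid arm was at -0.50, -0.54 and -0.32 in siGLI1 replicates 1, 2 and 3, against 0.02, -0.09 and 0.04 in siNT2 replicates 1, 2 and 3. The sterol arm was at 0.10, -0.03 and 0.09 in the same siGLI1 libraries, against -0.00, 0.04 and -0.02 in siNT2. All genes tested had medians from -0.01 to 0.01 in the 6 libraries. The fatty acid arm was thus low in each siGLI1 library while the sterol arm stayed near its siNT2 level, and no test was made of this difference between lists chosen with earlier results known. With the GC correction the arm medians of the log2 fold change were -0.34 for fatty acid genes and 0.13 for sterol genes, and 4 fatty acid genes were called lower (SCD, ELOVL6, FADS1 and SREBF1). That fit called 34.2% of genes, 16.9% higher and 17.3% lower, and 13 of the 30 members, 6 higher and 7 lower. Without siGLI1 replicate 3 and siNT2 replicate 2, 6 of the 10 were called lower, with ACLY and FADS2 added, against 15.1% of all genes in that fit.

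Directions within the sterol arm tended to follow GC content, with exceptions. Across the 20 sterol genes the rank correlation between the log2 fold change and transcript GC content was -0.57, and across the 10 fatty acid genes it was 0.07, as a description with the same libraries behind every point. Over all 14438 genes with a GC value it was -0.29. MSMO1 (38.1% GC) and SC5D (38.6%) were among the most AT-rich members, and LSS (58.3%) and EBP (53.5%) were richer in GC. After the correction the sterol value was -0.21 and the same 4 genes were still called in the same directions. Before the correction, some sterol genes went against the trend. Examples were PMVK (59.5% GC, log2 fold change 0.24), STARD4 (34.2%, -0.15) and IDI1 (41.1%, -0.22). In the fatty acid arm ELOVL6, at 41.2% GC, was also low.

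**Figure D3:**
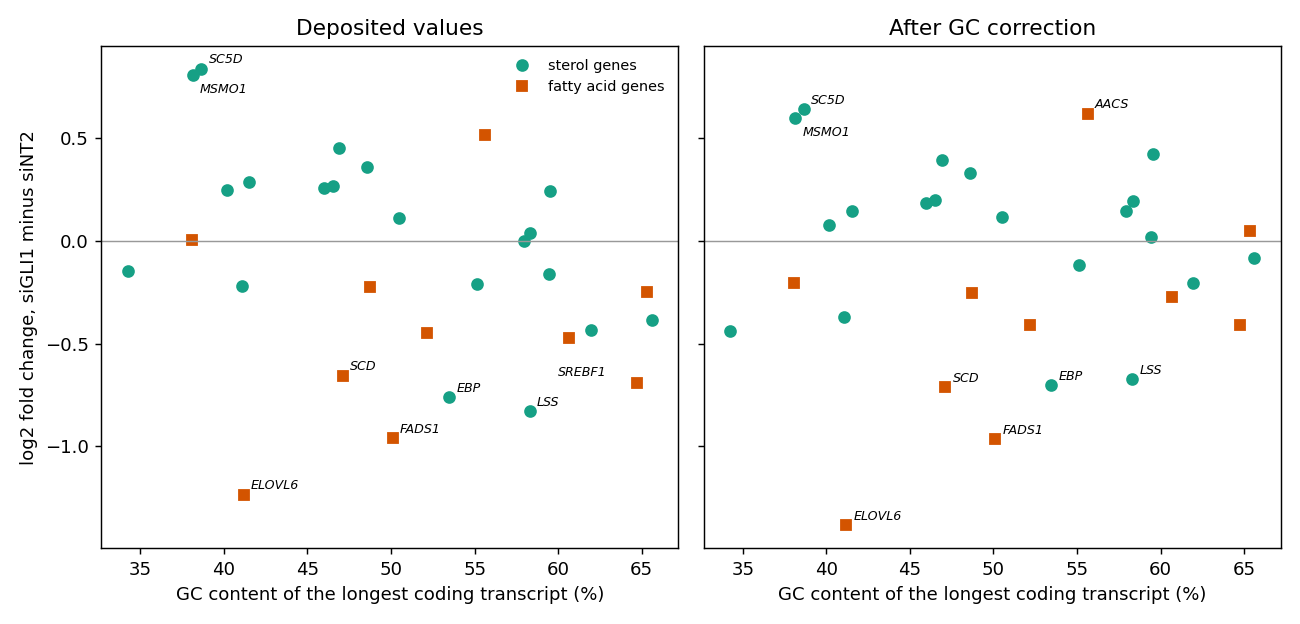
Each point is a member, placed by the GC percentage of its longest coding transcript and its log2 fold change (siGLI1 minus siNT2), before (left) and after (right) the GC correction, with sterol genes as green circles and fatty acid genes as orange squares. The rank correlation among sterol genes is weaker on the right (-0.21 against -0.57), while ELOVL6, FADS1 and SCD stay low in both.

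The members differed widely in level. Per kilobase of transcript, the siNT2 mean ran from 101 normalised counts for STARD4 to 3358 for SCD, and SCD ranked 150 and FASN (2886 per kilobase) 198 among 14438 genes. In siGLI1 cells SCD averaged 2138 per kilobase and FASN 2460. SREBF1 stood at 814 per kilobase in siGLI1 and 1292 in siNT2, and SREBF2 at 1047 in siGLI1 and 1048 in siNT2. ELOVL6 was a low member, at 64.1 in siGLI1 and 149.6 in siNT2, and FADS2 stood at 93.8 in siGLI1 and 129 in siNT2, while FADS1 stood at 418 in siGLI1 and 813 in siNT2. MSMO1 (369 in siGLI1 and 209 in siNT2) and SC5D (358 in siGLI1 and 198 in siNT2) had nearly the same levels.

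**Figure D4:**
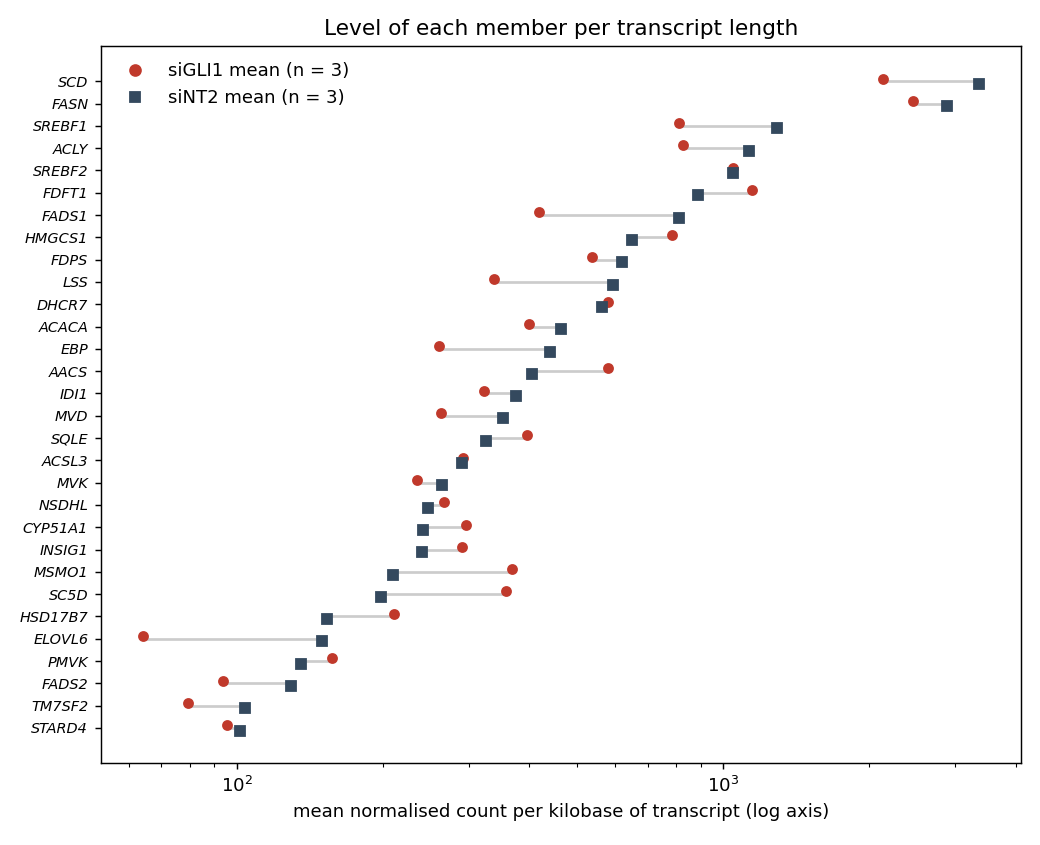
Mean normalised read count per kilobase of the longest coding transcript for each member, on a log axis, with siGLI1 means as red circles and siNT2 means as dark blue squares (n = 3 each, no error shown). SCD and FASN are the most abundant members in both groups, and ELOVL6 has the lowest siGLI1 level.

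Genes around these pathways, in 3 lists written beside the members, changed at rates near the background of 15.2%. Of 24 tested genes for sterol sensing, uptake and transport, 1 rose and 3 fell, with a median log2 fold change of 0.04. VLDLR, a lipoprotein receptor gene, was at 462, 615 and 434 in siGLI1 libraries, against 107, 112 and 185 in siNT2 libraries. It rose by 1.93 on the log2 scale (adjusted p = 0.00348, limma), and its call held in all 6 fits that left out 1 library. TMEM97, a sterol-responsive membrane protein gene, was at 2682, 2502 and 2432 in siGLI1 libraries, against 4600, 4974 and 5029 in siNT2 libraries. It fell by 0.94 (adjusted p = 0.00268), also held in all 6 such fits. ERLIN1, an endoplasmic reticulum gene of sterol and receptor degradation, fell by 1.11 (adjusted p = 0.0175), held in 3 of the 6, and the transfer protein gene STARD5 fell by 1.08 (adjusted p = 0.0208), held in 2.

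Of 14 tested genes for other sterol and isoprenoid steps, 2 passed the test, both lower, with a median of 0.02. DHDDS, a dolichol synthesis gene, fell by 0.65 (adjusted p = 0.0206), and ERG28, a scaffold of sterol C4 demethylation, fell by 0.58 (adjusted p = 0.0257). Of 32 tested genes for other fatty acid and glycerolipid steps, 2 rose and 4 fell, with a median of -0.11. The elongase genes ELOVL3 and ELOVL1 fell by 0.89 and 0.60 (adjusted p = 0.0206 and 0.0406), and the second stearoyl-CoA desaturase gene SCD5 fell by 0.65 (adjusted p = 0.0233). MLXIP, a glucose-responsive factor gene, fell by 0.85 (adjusted p = 0.0367), while the elongase gene ELOVL4 and the heart fatty acid-binding protein gene FABP3 rose by 0.70 and 0.69 (adjusted p = 0.0424 and 0.0383). The call of FABP3 held in 0 of the 6 fits that each leave out a library, those of ERG28, ELOVL3, ELOVL1, MLXIP and ELOVL4 held in 1, that of DHDDS in 2 and that of SCD5 in 3.

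Short sequences of 2 kinds were looked for in the members. The first was the SREBP site, TCACNCCAC on either strand, in RefSeq windows from 250 bases before to 50 after each gene's start (GRCh38.p14). Other forms of the site, and bases outside the windows, were not searched, so a member without a match may still have such a site. Of 27 members with a window only SREBF2 held this exact form, against 1.42% of tested genes with a window. It is shown because SREBF2 encodes SREBP2, a factor that binds such sites, with the site in capitals, on the + strand at chr22:41832962-41832990, the site starting at position -133 from the gene's start.
SREBF2 promoter: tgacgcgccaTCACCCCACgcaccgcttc
The NF-Y box CCAAT stood on either strand in 21 of the 27 members (77.8%), against 43.3% of tested genes, and the GC box GGGCGG in 26 (96.3%), against 74.6%. The E-box CACGTG was in 3 members (11.1%, against 12.3%), and the GLI site GACCACCCA in 0 of 27, against 0.359% of tested genes. Members called in either direction held the NF-Y box (LSS, EBP, MSMO1, SC5D) and lacked it (AACS, ELOVL6, FADS1), and a match in a window is a description of letters only.

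The second was the heptamer GCACCTC in 3' UTRs, which was chosen from earlier results of these data and is no independent observation here. Of 13150 tested genes with a 3' UTR in GENCODE release 29, 9.17% carried it, and 18.2% of the carriers were called lower, against 7.07% of the others. Among the members 6 carried it, and 1 of the 6 was called lower, against 3 of the 24 without it. The sites are shown with the heptamer in capitals, 5' to 3' on the transcript, for the 2 members that were low in siGLI1 and then for the other 4.
ELOVL6: actcactgagtGCACCTCcatctccaagc
SCD: aaggctggatgGCACCTCaggctgagggc
MVK: ccaggccaccaGCACCTCcctctgtccct
DHCR7: gcctcgggaggGCACCTCcttttctgtgc
SREBF2: ccccaggtgcaGCACCTCccggagactgt
FASN: cgcctcccacgGCACCTCggggacaccag
ELOVL6 was called lower and SCD was not, while MVK, DHCR7, SREBF2 and FASN had log2 fold changes between -0.25 and 0.04. FADS1, LSS and EBP, the other members called lower, carried no copy in the 3' UTR. The part of the heptamer in these values was not tested.

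**Figure D5:**
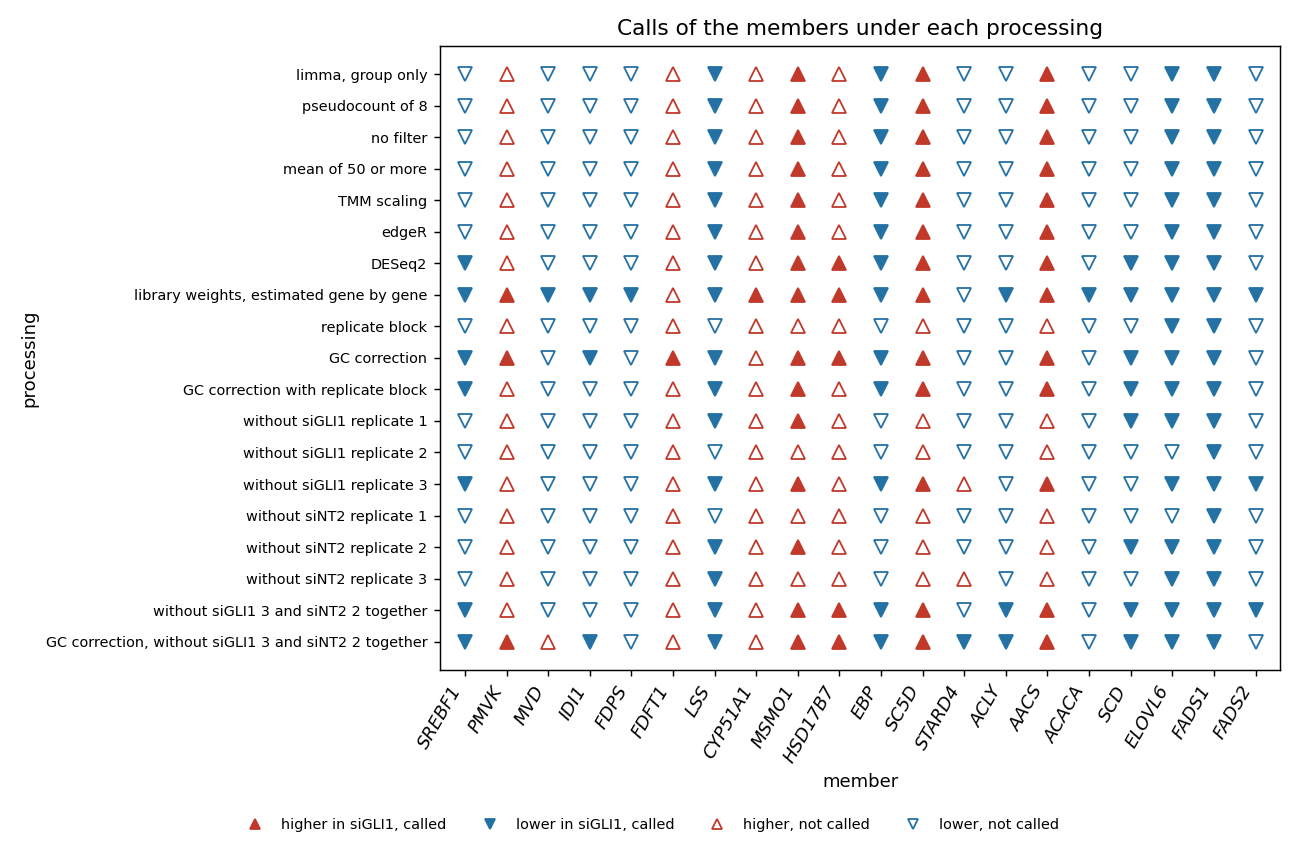
Each row is a processing and each column a member that was called in at least 1 of them, with upward red triangles for higher and downward blue triangles for lower in siGLI1, filled where the adjusted p was under 0.05. FADS1 is filled in every row, ELOVL6 in all but 2, and AACS, SC5D and EBP in the group-only fit and 12 of the 18 alternatives.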

How the data were processed

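The authors deposited 1 table of normalised read counts (a signal: whole reads scaled by a size factor for each library, with no correction for length). Per the submitters' processing notes, the build was hg19, and the tools included DESeq2 2.11.40.6, Subread 1.6.4 with featureCounts, Bowtie2 2.3.3.1, Trim Galore 0.4.5 and bcl2fastq. The sources used here do not give the strand setting, the handling of multimapping reads or the annotation. Whole reads were recovered: 100.0% of values were whole multiples of 1 read within 0.01 reads. A count of 0 allows up to 3 reads, 2.39 to 3.29 deposited units, for counting error only. Symbols came from RefSeq (GRCh38.p14; 23696 of 25702 IDs, 92.2%). GC content, length and 3' UTRs came from the longest coding transcript of GENCODE release 29 (92.4% of tested genes). The promoter site's coordinates are on GRCh38.p14, which differs from hg19, and the 3' UTR sites are given without coordinates.

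Main test: limma 3.58.1 (eBayes with trend) on log2(value + 1), group only, genes with a mean of 10 or more, Benjamini-Hochberg adjustment over 15622 genes, threshold 0.05. The GC correction subtracted from each library a spline of 5 degrees of freedom along GC content. Alternatives used edgeR 4.0.16 (quasi-likelihood) and DESeq2 1.42.0 on the recovered reads, other filters, pseudocounts, scaling and weights, and left-out libraries. Python 3.11.15 and R 4.3.3 were used, and the test was tried on simulated data. No 2 libraries of a group agreed within sampling noise. The named genes were all 30 members, GLI1 and, from 3 context lists, up to 6 genes per list that passed the test. RAI1, the pseudogenes and genes of the marker lists were named after their values were seen. Members and lists were chosen with earlier results of these data known.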

Additional observations from a re-analysis of the deposited data

How the results depend on the processing

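Of the 30 members, FADS1 alone kept its call in all 18 alternatives. A pseudocount of 8, no filter, a mean of at least 50, TMM scaling and edgeR left the same 7 members called. Among all genes tested, 1127 were called higher and 1249 lower. These counts became 4059 and 4215 with library weights, 2440 and 2498 with the GC correction, 1954 and 1985 with that correction and the replicate block, 2236 and 2356 without siGLI1 replicate 3 and siNT2 replicate 2, and 2516 and 2600 with both changes. The weights, estimated gene by gene because the default estimate did not converge, and the last 2 settings were chosen after seeing the data. Leaving out 1 library gave 283 to 1562 higher and 358 to 1705 lower.

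In the fatty acid arm, 2 genes were called lower, against 4 with DESeq2, 7 with weights, 4 with the GC correction with or without the block, 6 without the 2 libraries, 5 with the GC correction as well, and 1 to 4 with 1 library left out. Over all 15622 genes tested, 1249 were called lower, against 1634 with DESeq2, 4215 with weights and 2356 without the 2 libraries. Of 14438 genes with a GC value, the correction called 2498 lower, 1985 with the block and 2600 without the 2 libraries. Its 1 gene called higher became 0 to 1 with 1 library left out. Its median of -0.46 became -0.34 with the GC correction, with or without the block, and -0.49 to -0.42 with 1 library left out. In the sterol arm, 2 genes higher and 2 lower became 5 and 5 with weights, 5 higher with the GC correction, 4 and 4 with the GC correction without the 2 libraries, and 0 to 2 each with 1 library left out. Its median of 0.08 became 0.014 with weights, 0.14 with the GC correction without the 2 libraries, and 0.047 to 0.15 with 1 library left out.

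Same-numbered libraries of both groups share the first digits of a sample code in the labels, whose meaning is not stated. Deviations of same-numbered libraries from their group means correlated at 0.49, -0.11 and -0.61, or at 0.34, 0.02 and -0.39 when GC-corrected. The replicate numbers thus did not pair these deviations. With 3 libraries in each group and GC trends in them, the correlations cannot show whether same-numbered libraries shared an experiment. With the replicate block, 462 genes were called higher and 508 lower, the sterol arm had 0 higher and 0 lower, and the fatty acid arm 0 higher and 2 lower (limma). The block ended the calls of LSS (adjusted p = 0.058), MSMO1 (0.0567), SC5D (0.0787), EBP (0.121) and AACS (0.13), and ELOVL6 (0.0325) and FADS1 (0.0255) stayed called. At an unadjusted p under 0.05 the block left 2 sterol genes higher and 2 lower, and 1 fatty acid gene higher and 5 lower. No count over all genes was made at that threshold with the block, so these counts have no background. In the group-only fit (limma) it took in 4943 of 15622 genes tested, 5 of the 20 sterol genes and 7 of the 10 fatty acid genes. Not every library correlated best with its own number.

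Signs turned for members near 0. ACSL3 was at -0.0042 with TMM, -0.080 with weights, -0.20 with the GC correction (block or not), -0.24 without the 2 libraries as well, and -0.15 to 0.16 with 1 library left out. SREBF2 was at 0.0091 with edgeR, 0.010 with DESeq2, 0.15 with the GC correction (block or not), 0.13 without the 2 libraries as well, and -0.066 to 0.045 with 1 left out. DHCR7 was at -0.10 with weights, -0.013 without the 2 libraries, and -0.016 to 0.13 with 1 left out. MVK was at 0.018 with the GC correction (block or not), 0.052 without the 2 libraries as well, and -0.34 to 0.055 with 1 left out. FASN was at 0.046 with the GC correction (block or not) and 0.017 without the 2 libraries as well, where MVD was at 0.030. STARD4 ranged from -0.48 to 0.24 with 1 left out. The causes were not tested.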
